A study of Mus musculus with 6 samples.

Results

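The genes described here are the BTB domain and Kelch family genes of the mouse testis. They were taken by name: every gene symbol of the tables that begins with Btbd, Kbtbd or Klhl followed by a digit, with 1 name that ends in "os", for an opposite-strand transcript, left out. This gave 81 of 25165 symbols. Of these, 22 belong to the multicopy Btbd35f family of the X chromosome and 59 are called single-copy genes here, namely 13 Btbd, 9 Kbtbd and 37 Klhl genes. The term means only that a name stands outside that family, and by the sequence rule used for near copies 2 of the 59 also matched another gene, Kbtbd4 with Ptpmt1 and Klhl38 with Gm15943. The exons of Kbtbd4 and Ptpmt1 overlap, so that match need not mean a copy elsewhere. Total testis RNA of C57BL/6 mice aged 8 weeks gave 6 sequenced libraries, 3 with KO and 3 with WT in the title, in a study that removed Teshl, a testis long non-coding RNA. In all 6 libraries the title disagrees with the genotype given in the labels, since each library with KO in its title has a wild type genotype and each with WT in its title a homozygous loss. Groups were formed by title, and KO and WT libraries below are those so titled. Each difference is KO minus WT. The labels name no other allele and no treatment in either group, and they do not tell whether separate animals were used within a group. The p-values therefore weigh only library-to-library spread, and some or all of that spread may be technical.

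The BTB domain is a protein fold that lets proteins pair with one another. Many BTB proteins also bind cullin-3, the scaffold of a family of ubiquitin ligases, and a second part of the protein, often a propeller of Kelch repeats, holds the substrate that is to be marked with ubiquitin. In the testis, Klhl10 is known as a cullin-3 adaptor of developing spermatids that male fertility in mice requires.

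The unit is FPKM, fragments divided by transcript length and library depth, a level per length that can be compared between genes. Depth, estimated from the steps between low values, was 27900000 to 39800000 fragments a library, so that 3 fragments on 1 kb equal 0.0754 to 0.107 FPKM. This floor covers counting error only. Pairs of KO libraries correlated at 0.991 to 0.993 on the log2 scale, pairs of WT libraries at 0.989 to 0.992, and pairs across the groups at 0.981 to 0.991. The gene of the removed transcript, 1700027A15Rik, had 0.385 FPKM in KO replicate 1 and was listed at 0 in replicates 2 and 3, against 1028, 989 and 1081 FPKM in the WT libraries. Tested as log2(FPKM + 1), it differed by -9.86 (SE 0.13, limma adjusted p = 2.91e-08). The low level sits in the KO libraries, as their titles would have it and their genotype field would not.

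The Btbd35f genes are shown first by their sequence, because how alike the copies are bears on every value of the family. GENCODE M21 annotates 30 Btbd35f genes on mouse genome build GRCm38 (mm10), of which 22 are among the symbols of the tables and 8 are not listed by name. Whether fragments of those 8 entered the values of the 22 is not known. All 22 are protein-coding genes with 1 exon. They lie in 2 blocks of the X chromosome. The first block spans 3076875 to 5671026 and holds 12 of the genes, 8 on the plus and 4 on the minus strand. The second spans 31336454 to 33956540 and holds 10, 7 on the plus and 3 on the minus strand. Across the 231 pairs of transcripts the identity was 98.8% to 100%, with a median of 99.5%. Only 54 of the 1491 alignment columns present in all 22 genes varied, and the longest run with no difference was 142 bases. The BTB gene Gmcl1, an autosomal relative, was 64.5% to 65.3% identical over 897 to 964 bases.

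A stretch of 60 coding bases, chosen because 6 of the variable columns fall in it, shows how the copies differ. The capitals mark the columns that vary among the 22 genes, and each line is 1 of the 7 forms, read 5′ to 3′ on the coding strand from the reference genome.
Btbd35f1, f2, f3, f4, f5, f10, f11, f17, f18, f20, f23, f26 and f28: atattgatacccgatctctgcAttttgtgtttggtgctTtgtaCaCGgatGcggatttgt
Btbd35f13, f14 and f15: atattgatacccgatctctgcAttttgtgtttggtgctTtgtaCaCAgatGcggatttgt
Btbd35f6 and f7: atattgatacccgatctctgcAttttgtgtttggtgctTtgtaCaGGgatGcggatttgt
Btbd35f21: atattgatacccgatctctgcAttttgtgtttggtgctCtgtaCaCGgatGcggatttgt
Btbd35f27: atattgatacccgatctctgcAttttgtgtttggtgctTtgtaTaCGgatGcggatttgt
Btbd35f12: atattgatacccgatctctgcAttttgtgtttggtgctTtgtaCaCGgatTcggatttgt
Btbd35f16: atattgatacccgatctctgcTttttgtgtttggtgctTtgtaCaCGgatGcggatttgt
The Btbd35f6 copy lies at chrX:33956069-33956128 on the minus strand and the Btbd35f4 copy at chrX:4800902-4800961 on the plus strand. The 13 genes that share the first form come from both blocks, so a fragment within this stretch would not tell those genes apart.

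Windows of 100 bases that occur in no other near copy were therefore counted along each transcript. In 7 genes (Btbd35f3, f4, f10, f11, f15, f20 and f26) no window was the gene's own. In the other 15 genes the share of own windows ran from 5.40% in Btbd35f5 to 43.8% in Btbd35f23. The near copies included 2 genes under other names, Gm5925 (98.9% identity) and Gm14367 (99.3%), both in the first block. The sources used here do not say how fragments were divided among the copies, so the level of any single Btbd35f gene is uncertain, and least tied to its own sequence in the 7 genes without a window of their own.

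The upstream sequences were also nearly alike. RefSeq promoters (GRCm38.p6) were matched for 7 of the 22 genes, and their 250 bases before the annotated start were 97.2% to 100% identical in pairs. Stretches of 48 bases around an 8-letter element, in capitals, fall into 3 forms.
Btbd35f3, Btbd35f4 and Btbd35f13: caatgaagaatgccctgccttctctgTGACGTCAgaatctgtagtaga
Btbd35f7, Btbd35f21 and Btbd35f28: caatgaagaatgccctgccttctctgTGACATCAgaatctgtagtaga
Btbd35f6: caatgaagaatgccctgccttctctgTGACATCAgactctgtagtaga
The Btbd35f4 stretch lies at chrX:4800356-4800403 on the plus strand, the Btbd35f21 stretch at chrX:32726054-32726101 on the plus strand and the Btbd35f6 stretch at chrX:33956633-33956680 on the minus strand. The letters TGACGTCA are those of the full cyclic AMP response element, the site of CREB and CREM factors, and 1.55% of the 32851 RefSeq promoters hold them on either strand. The form TGACATCA stands in 2.93% of those promoters. The stretches were chosen to hold either form. The 7 promoters are near copies, so these shares cannot show whether the element is enriched in the family. None of the 7 promoters held TATAAA (12.4% of all promoters), CCAAT (33.8%), GGGCGG (32.7%) or a full heat shock element (0.466%) on either strand within these 250 bases. The whole window is printed for Btbd35f4, at chrX:4800161-4800410 on the plus strand, because this gene had the highest fold among the family members called higher.
Btbd35f4: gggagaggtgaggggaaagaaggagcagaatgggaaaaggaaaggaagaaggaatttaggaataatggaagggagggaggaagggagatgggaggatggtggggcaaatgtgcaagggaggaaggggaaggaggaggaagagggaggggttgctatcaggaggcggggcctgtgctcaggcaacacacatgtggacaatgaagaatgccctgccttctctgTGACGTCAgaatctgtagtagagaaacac

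The Btbd35f family as a whole was about 2-fold higher in the KO libraries. Its 22 symbols summed to 53.9, 67.3 and 56.2 FPKM in the KO libraries and to 26.4, 26.5 and 29.7 FPKM in the WT libraries. The sums did not overlap, with 59.2 ± 7.17 FPKM (SD, n = 3) against 27.5 ± 1.91 FPKM, a ratio of 2.15. About 3400, 3760 and 3890 fragments stood behind the sums of the KO libraries and about 1340, 1480 and 1630 behind the WT libraries. The 59 single-copy genes summed to 531, 560 and 544 FPKM against 546, 545 and 566 FPKM. Their groups overlapped, at 545 ± 14.2 FPKM (SD, n = 3) and 553 ± 11.9 FPKM. In RNA of whole testis, a change in the number of cells of a type and a change in RNA per cell cannot be told apart.

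Gene by gene, 12 Btbd35f genes reached a group mean of 1 FPKM, the lower limit for testing, in the KO or the WT libraries. Of these, 5 were called higher in the KO libraries and 0 lower by limma on log2(FPKM + 1) at a Benjamini-Hochberg adjusted p under 0.05 over all 12952 genes tested. Over all genes 0.788% were called higher and 0.363% lower, and over the 527 tested genes of the X chromosome 14.2% were called higher and 0 lower. The family's median difference was 0.89 on that scale, against -0.04 over all genes tested. Btbd35f2, f15, f23 and f28 passed the filter only through the KO libraries, so the tested genes are not a fair sample of the family. In 15 of the 19 family members above 0 in some library, every KO library lay above every WT library. The same held for 5.65% of all symbols above 0 and for 21.3% of those on the X chromosome. No member was below in this sense, against 12% of all symbols above 0 and 8.06% on the X chromosome. The copies may share fragments, so the members behind these counts and calls are not separate observations.

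**Figure D1:**
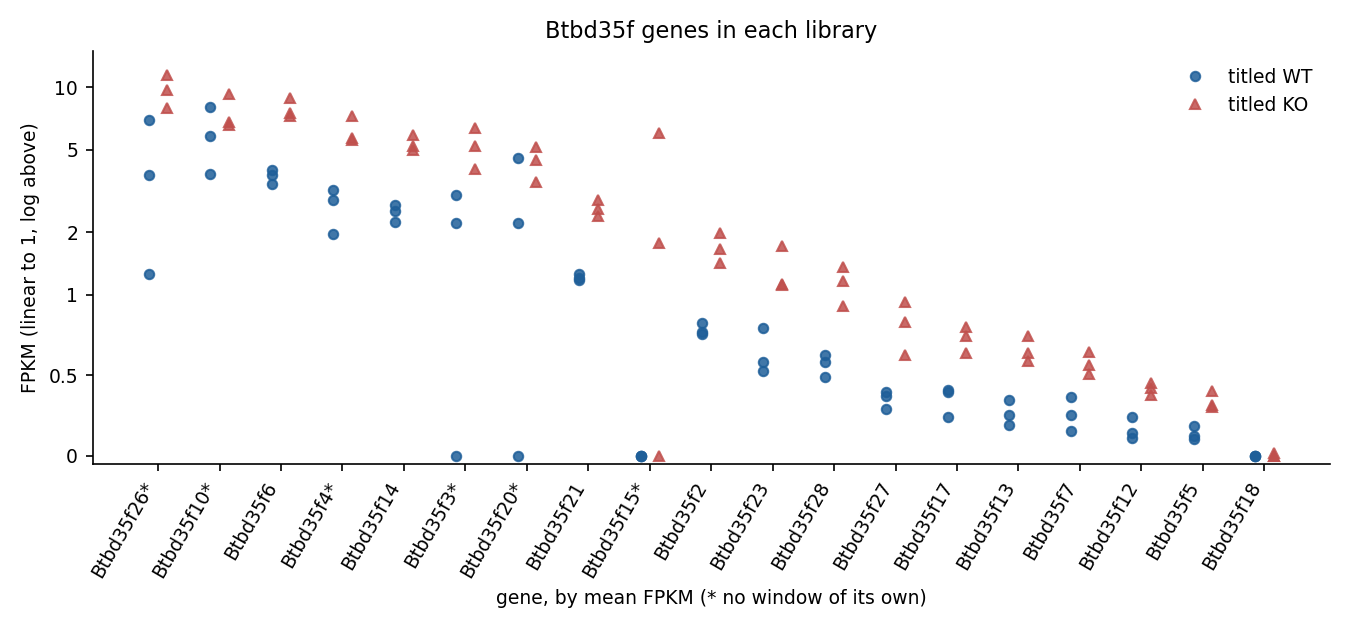
FPKM of each of the 19 Btbd35f genes above 0 in some library, ordered by mean level, with 1 point per library, on an axis that is linear up to 1 and logarithmic above, and asterisks on genes without a window of their own. Btbd35f6, f14, f21, f4 and f2, the 5 genes called higher, have all 3 KO libraries above all 3 WT libraries, while Btbd35f10, f15 and f20 overlap.

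Btbd35f6 (chrX:33955044-33956540, minus strand) had 7.26, 8.90 and 7.49 FPKM in the KO libraries and 3.41, 3.79 and 4.01 FPKM in the WT libraries. It was 2.11-fold higher, with a log2 difference of 0.91 (SE 0.09, limma adjusted p = 0.000833). Of its windows 7.15% were its own, although in the printed coding stretch it has the same letters as Btbd35f7. Btbd35f14 (chrX:33700649-33702349, minus strand) had 5.0, 5.87 and 5.21 FPKM against 2.24, 2.52 and 2.71 FPKM. It was 2.15-fold higher, with a log2 difference of 0.87 (SE 0.08, limma adjusted p = 0.000732) and 12.5% own windows. Btbd35f21 (chrX:32726109-32728051, plus strand) had 2.39, 2.87 and 2.58 FPKM against 1.18, 1.26 and 1.20 FPKM. With 23.1% own windows it was 2.16-fold higher, with a log2 difference of 0.71 (SE 0.07, limma adjusted p = 0.00154). In these 3 genes of the second block the lowest KO library stood clear of the highest WT library.

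Btbd35f4 (first block, chrX:4800496-4801986, plus strand) had 5.59, 7.26 and 5.68 FPKM against 1.97, 2.86 and 3.20 FPKM, a 2.31-fold difference. Its log2 difference was 0.97 (SE 0.14, limma adjusted p = 0.0219). No window of this gene was its own. Its 1491 bases aligned to Btbd35f3, which was not called, with 0 differences, so the levels of the pair are not tied to either gene. The call was lost without KO replicate 2 (limma adjusted p = 0.0562), KO replicate 3 (0.0762) or WT replicate 2 (0.0673). Btbd35f2 (second block, chrX:32278394-32280342, plus strand) had 1.42, 1.97 and 1.65 FPKM against 0.756, 0.826 and 0.765 FPKM. It was 2.15-fold higher, with a log2 difference of 0.58 (SE 0.09, limma adjusted p = 0.0136). That call was lost without KO replicate 3 (limma adjusted p = 0.0728) or WT replicate 1 (0.0751).

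Among the 7 tested genes that were not called, Btbd35f28 and Btbd35f23 had the smallest spread. Btbd35f28 had 0.926, 1.35 and 1.17 FPKM against 0.626, 0.490 and 0.581 FPKM, a ratio of 2.03 (log2 difference 0.45, SE 0.09, limma adjusted p = 0.0518). Btbd35f23 had 1.13, 1.72 and 1.12 FPKM against 0.794, 0.583 and 0.526 FPKM, a ratio of 2.08 (log2 difference 0.50, SE 0.11, limma adjusted p = 0.0825). The groups did not overlap in either gene. The other 5 have no window of their own, and their libraries scattered widely. Btbd35f26 had 7.92, 11.5 and 9.75 FPKM against 1.26, 3.78 and 6.96 FPKM (limma adjusted p = 0.389), and Btbd35f3 had 5.19, 4.04 and 6.39 FPKM against 0, 3.02 and 2.20 FPKM (0.401). In both the groups stood apart, but the WT libraries of each gene differed among themselves by several FPKM. Btbd35f10 had 9.28, 6.82 and 6.59 FPKM against 8.07, 3.84 and 5.82 FPKM (limma adjusted p = 0.553). Btbd35f20 had 4.44, 5.17 and 3.49 FPKM against 4.58, 2.21 and 0 FPKM (limma adjusted p = 0.547). Btbd35f15 had 0, 6.03 and 1.77 FPKM and was listed at 0 in all 3 WT libraries (limma adjusted p = 0.467). These 3 genes overlapped between the groups, and Btbd35f15 ranged from 0 to 6.03 FPKM within 1 group.

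The remaining 10 genes were too low for the test. In Btbd35f5, f7, f12, f13, f17 and f27 every KO library lay above every WT library. Btbd35f27 was the highest of these, with 0.625, 0.955 and 0.827 FPKM against 0.398, 0.368 and 0.292 FPKM, and Btbd35f5 the lowest, with 0.316, 0.405 and 0.303 FPKM against 0.102, 0.183 and 0.123 FPKM. The ratios of group means of these 6 genes ran from 2.09 in Btbd35f17 to 2.51 in Btbd35f5 and Btbd35f12. Btbd35f18 had 0.0192 FPKM in KO replicate 3 and 0 elsewhere. Btbd35f1, f11 and f16 were listed at 0 in all 6 libraries.

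The spread between libraries differed between the tested genes with and without windows of their own. The 6 tested genes with windows of their own had standard errors of 0.07 to 0.11 on the log2 scale, and 4 of them were called. The 6 tested genes without had standard errors of 0.14 to 0.79, and 1 was called. Among genes with own windows the standard error did not fall steadily with their share. It was 0.09 in Btbd35f6 (7.15%), 0.07 in Btbd35f21 (23.1%) and 0.11 in Btbd35f23 (43.8%). Btbd35f23 and f28 averaged 0.978 and 0.858 FPKM over all libraries, levels at which the pseudocount also shrinks the spread. Among the 13 genes above 0 with own windows, 12 did not overlap between the groups, with ratios from 2.03 to 2.51, the exception being Btbd35f18. Among the 6 without, 3 did not overlap. All of these had every KO library above, as did 5.65% of all symbols above 0 and 21.3% on the X chromosome. Copies of the 2 sets may share fragments, so the sets are not separate from each other. The sums of the 2 sets moved by the same ratio. The genes with own windows summed to 21.5, 26.5 and 22.6 FPKM against 10.5, 10.7 and 11.6 FPKM, 2.15-fold, and those without to 32.4, 40.8 and 33.7 FPKM against 15.9, 15.7 and 18.2 FPKM, also 2.15-fold.

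**Figure D2:**
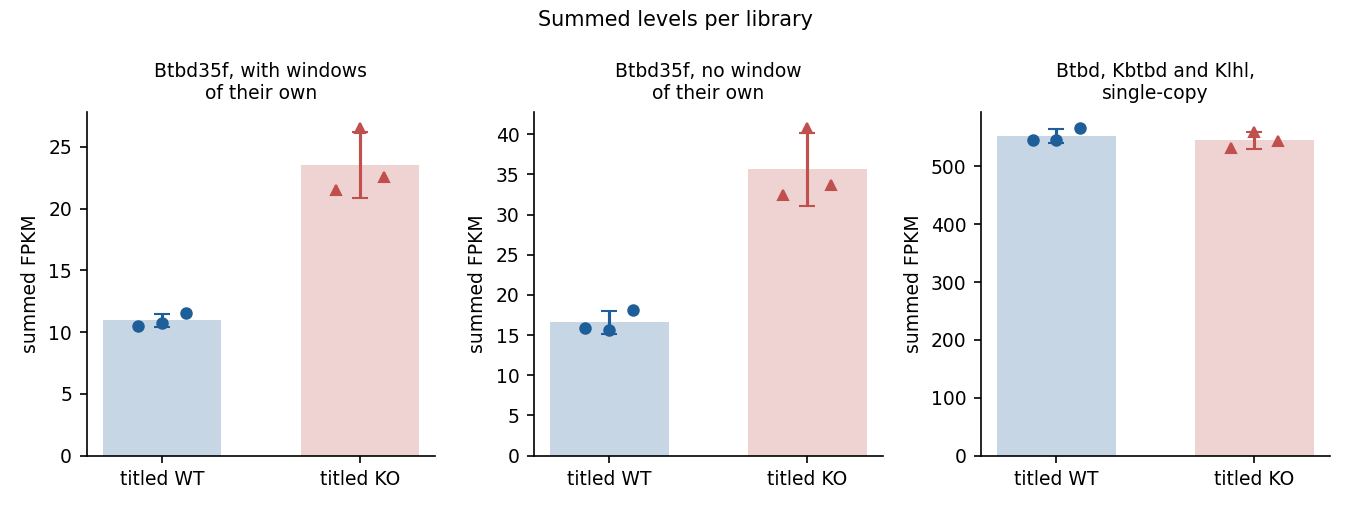
Summed FPKM of the Btbd35f genes with windows of their own, the Btbd35f genes without, and the single-copy genes, with points for libraries, bars for group means and error bars for the SD (n = 3), on axes that start at 0. In both Btbd35f panels every KO library lies above every WT library (21.5 to 26.5 against 10.5 to 11.6 FPKM, and 32.4 to 40.8 against 15.7 to 18.2 FPKM), while the single-copy sums overlap.

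**Figure D3:**
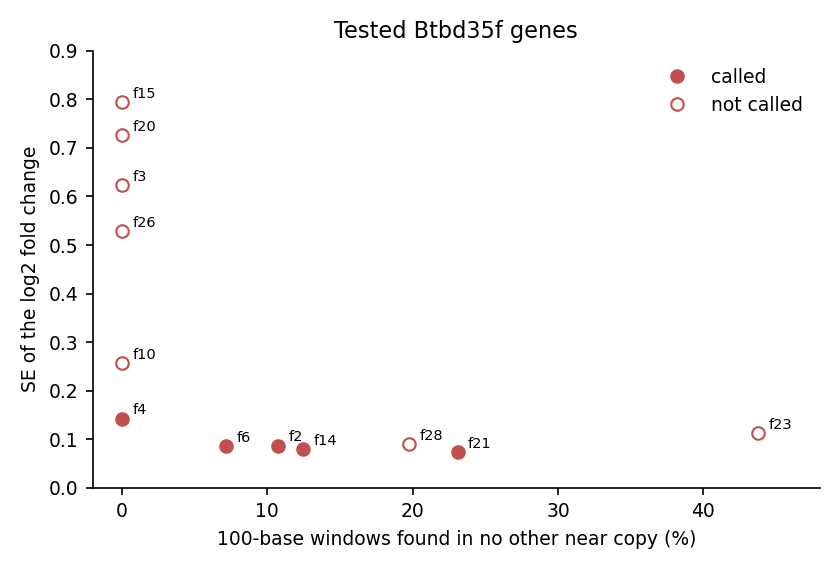
Standard error of the log2 difference of each of the 12 tested Btbd35f genes against the share of its 100-base windows found in no other near copy, with filled points for genes called. The genes without a window of their own spread from 0.14 to 0.79, and those with own windows lie between 0.07 and 0.11.

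Rows of the tables add to this uncertainty. The 22 symbols take up 43 rows, 8 symbols stand on more than 1 row, and their rows were summed. Btbd35f26 has 8 rows, of which 3, 3 and 4 were at 0 in the KO libraries and 4, 3 and 3 in the WT libraries. Btbd35f10 has 7 rows, of which 3, 4 and 4 were at 0 in the KO libraries and 2, 5 and 4 in the WT libraries. Of the genes called higher, Btbd35f4 has 3 rows, and Btbd35f2 and Btbd35f14 have 2 each. The highest row of Btbd35f2 had 0.723, 1.01 and 0.830 FPKM in the KO libraries, so this gene passed the filter only with its rows summed. No single-copy gene stood on more than 1 row.

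The 2 blocks gave like ratios where the genes had windows of their own, 2.12 in the first block and 2.16 in the second. With all genes included, the first block summed to 28.6, 28.6 and 26.5 FPKM against 17.1, 13.8 and 13.4 FPKM (1.89-fold) and the second to 25.3, 38.7 and 29.8 FPKM against 9.31, 12.7 and 16.3 FPKM (2.45-fold). The difference between the blocks was not tested. Gm5925, the processed pseudogene of the family in the first block, had 1.83, 2.40 and 1.46 FPKM against 0.785, 0.939 and 0.989 FPKM, a 2.10-fold difference called higher (log2 difference 0.59, limma adjusted p = 0.0480). It passed the filter only through the KO libraries (mean 1.90 against 0.904 FPKM). As a near copy it may also share fragments with the Btbd35f genes, so its call is not separate from theirs. Other symbols between the Btbd35f genes did not share the pattern. Gm21637 in the second block had 0.355, 0.466 and 0.417 FPKM against 0.676, 0.871 and 0.918 FPKM, with all 3 KO libraries below the WT libraries, and it was too low for the test. Mycs, Spin2-ps1 and Gm2837 were below 0.5 FPKM in every library and overlapped between the groups.

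Levels of cell type markers were set beside these values. The summed level of 5 elongating spermatid genes was 30980, 33016 and 32153 FPKM in the KO libraries against 27392, 25893 and 29704 FPKM, a ratio of 1.16. Of the 5, Prm1, Prm2 and Tnp2, which package sperm DNA, did not overlap between the groups (limma adjusted p = 0.0682, 0.106 and 0.0735), while Tnp1 and Odf1 did. The round spermatid sum ran from 442 to 543 FPKM in the KO libraries and from 438 to 493 in the WT libraries, and the spermatocyte sum from 296 to 317 and from 299 to 313 FPKM. Spermatogonial markers summed to 15 to 17.1 FPKM against 16.8 to 18.0, Sertoli cell markers to 59.8 to 63.8 against 60.3 to 66.0, and Leydig cell markers to 1469 to 1715 against 1645 to 1707. Peritubular markers summed to 25.4 to 31.3 FPKM against 26.5 to 38.0, and macrophage markers to 13.9 to 16.9 against 16.4 to 19.0. No marker of these 8 lists was at 0. Zbtb16 of the spermatogonial and Amh of the Sertoli cell list were too low for the test. Limma called 0 of the other markers, against 0.788% higher and 0.363% lower over all genes, but some had an unadjusted p under 0.05. These were the 3 elongating spermatid markers above, which were higher, and Kit of the spermatogonial, Hsd3b1 of the Leydig cell and Cnn1 of the peritubular list, which were lower. Over all genes tested, 5.38% were higher and 8.89% lower at that p. Every KO library lay below every WT library in Kit, Hsd3b1 and the round spermatid marker Acr. Besides Prm1, Prm2 and Tnp2, the round spermatid marker Catsper3 had every KO library above every WT library. Of all symbols above 0, 12% were below and 5.65% above in this sense. The part of the marker levels in the Btbd35f difference was not tested.

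No single-copy gene passed the test. Of the 59, 37 passed the filter, and limma called 0 higher and 0 lower, while an unadjusted p under 0.05 was found for 2 higher and 3 lower genes. Over all genes tested, 5.38% were higher and 8.89% lower at that p, so the single-copy counts are near the background. Their median difference was -0.05 on the log2(FPKM + 1) scale, against -0.04 over all genes tested, and 28 of the 37 lay within 0.1 of 0. The 95% intervals of all 37 lay between -0.42 and 0.34. In 2 of the 59 genes every KO library lay above every WT library, and in 9 below, against 5.65% and 12% of all symbols above 0. By name, the medians were 0.02 for the 8 tested Btbd genes, 0.04 for the 7 Kbtbd genes and -0.07 for the 22 Klhl genes.

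**Figure D4:**
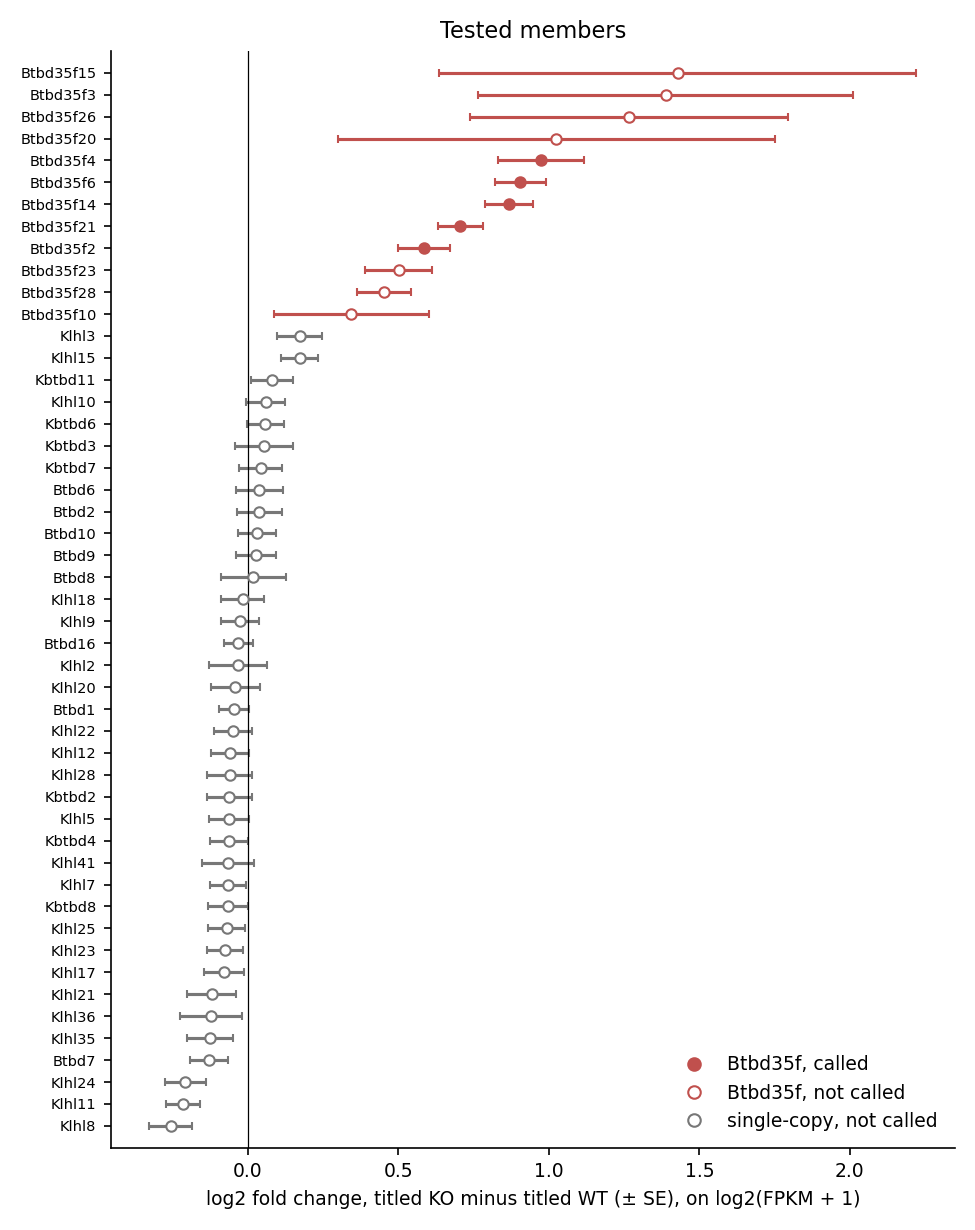
Differences of the tested members on the log2(FPKM + 1) scale, KO minus WT, with bars of 1 SE and filled points for genes called. The 12 Btbd35f genes run from 0.34 to 1.43 and the 37 single-copy genes from -0.26 to 0.17.

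The levels of the single-copy genes spanned a wide range. There were 11 with a mean of at least 10 FPKM, 26 between 1 and 10 and 22 below 1. Klhl10 (chr11:100441917-100457022) was the highest, with 153, 166 and 157 FPKM in the KO libraries and 152, 141 and 164 in the WT libraries, 28.4% of the single-copy sum. Its groups overlapped, with a difference of 0.06 (SE 0.06, limma adjusted p = 0.661). Btbd1, a cullin-3 partner, had 92.8, 99.9 and 98.2 FPKM against 100.4, 100.7 and 99.3 FPKM (difference -0.05, limma adjusted p = 0.651). Btbd16 had 45.2, 47.3 and 45.0 FPKM against 46.7, 47.0 and 47.0 FPKM (difference -0.03, limma adjusted p = 0.758). Both changed sign under another scaling of the libraries. Btbd10 had 41.6, 45.6 and 41.3 FPKM against 40.2, 41.1 and 44.5 FPKM (difference 0.03, limma adjusted p = 0.830). The next of the 10 highest were Klhl7, Klhl11, Kbtbd4, Btbd7, Kbtbd6 and Klhl25, with every library between 11.5 and 15.4 FPKM. The exons of Kbtbd4 overlap those of Ndufs3 and Ptpmt1, and with an unknown strand setting its fragments may include theirs.

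**Figure D5:**
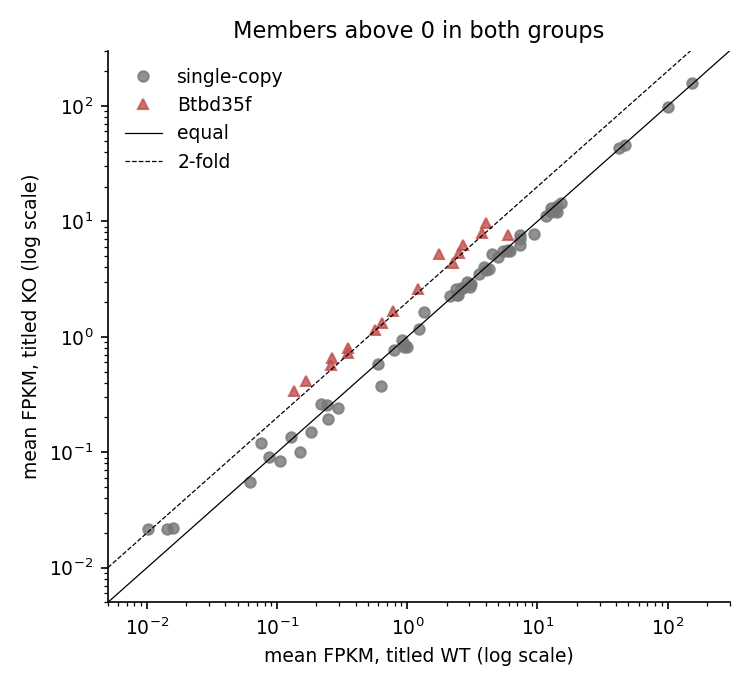
Mean FPKM in the KO libraries against mean FPKM in the WT libraries, both on log axes, for members above 0 in both groups, with lines for equal levels and for a 2-fold difference. The single-copy genes lie along the line of equal levels, most closely at high levels, and the Btbd35f genes lie near the 2-fold line apart from Btbd35f10 (1.28-fold) and Btbd35f3 (2.99-fold).

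The differences nearest to the threshold were small. Klhl11 had 12.03, 12.5 and 11.7 FPKM against 14.2, 14.6 and 13.8 FPKM, a difference of -0.22 (SE 0.06, limma adjusted p = 0.138). Klhl8 had 8.19, 7.39 and 7.69 FPKM against 9.09, 10.4 and 8.97 FPKM, a difference of -0.26 (SE 0.07, limma adjusted p = 0.161). Klhl24 had 6.15, 6.21 and 6.32 FPKM against 6.80, 8.00 and 7.31 FPKM, a difference of -0.21 (SE 0.07, limma adjusted p = 0.228). The groups did not overlap in any of the 3, and none was called. Klhl11 encodes a Kelch protein whose human counterpart is the target of autoantibodies in men with testicular tumours. It lies beside Klhl10, at chr11:100462614-100472741. Among the 22 genes too low for the test, Klhl31, named after its values were seen, had 0.414, 0.350 and 0.368 FPKM against 0.666, 0.532 and 0.676 FPKM, a ratio of 0.604 without overlap.

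In the other direction, Klhl15 had 5.21, 5.24 and 5.10 FPKM against 4.61, 4.59 and 4.28 FPKM, a difference of 0.17 (SE 0.06, limma adjusted p = 0.263). Klhl3, the adaptor for WNK kinases in the kidney, had 1.47, 1.75 and 1.68 FPKM against 1.44, 1.24 and 1.33 FPKM, also 0.17 (SE 0.08, limma adjusted p = 0.344). The groups stood apart in both. Kbtbd11 followed, with 2.37, 2.57 and 2.77 FPKM against 2.28, 2.43 and 2.42 FPKM and an overlap (difference 0.08, limma adjusted p = 0.593).

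Of the 4 single-copy genes on the X chromosome only Klhl15 (chrX:94234599-94277724) was high enough for the test. Klhl4 averaged 0.241 FPKM in the KO libraries and 0.294 in the WT libraries, and Klhl13 0.263 and 0.215 FPKM, with overlap in both. Klhl34 reached at most 0.0135 FPKM, which is below the floor.

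The parts of the ligase that BTB proteins join were read from a list of 24 genes. Of these 23 were tested, Cand2 being listed at 0 in all libraries, and limma called 0, against 0.788% higher and 0.363% lower over all genes. An unadjusted p under 0.05 was found for 1 gene, which was lower, against 8.89% lower and 5.38% higher over all genes tested. All 3 KO libraries lay below the WT libraries in 5 of the 23 genes and above them in 0, against 12% and 5.65% of all symbols above 0. Their median difference was -0.05. Cul3, the cullin itself, had 65.5, 68.9 and 66.3 FPKM against 66.3, 69.3 and 69.8 FPKM (difference -0.03, limma adjusted p = 0.755). Rbx1, the RING subunit that recruits the ubiquitin-carrying enzyme, had 14.9, 15.3 and 14.8 FPKM against 14.4, 14.8 and 16.1 FPKM (difference -0.01, limma adjusted p = 0.937). Both overlapped between the groups, and both changed sign under another scaling of the libraries. Uba3, a subunit of the enzyme that activates NEDD8 for cullins, was the gene with the small unadjusted p, and was named after its values were seen. It had 7.04, 7.09 and 7.56 FPKM against 8.91, 8.79 and 8.68 FPKM (difference -0.25, limma adjusted p = 0.0928), without overlap.

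Of 30 BTB genes with other names 26 were tested and limma called 0. An unadjusted p under 0.05 was found for 1 higher gene and 2 lower genes, counts near or below the 5.38% and 8.89% of all genes, and the median difference was -0.04. Keap1, the Kelch adaptor that holds the stress factor NRF2 for degradation, had 11.3, 11.7 and 12.1 FPKM against 10.8, 12.6 and 12.4 FPKM. Its difference was -0.02 (limma adjusted p = 0.893), and its sign changed under another scaling. Gmcl1, the autosomal relative of the Btbd35f genes, had 37.4, 41.2 and 42.4 FPKM against 38.2, 40.1 and 39.8 FPKM (difference 0.03, limma adjusted p = 0.796). Its groups overlapped, and the 95% interval of its difference was -0.10 to 0.17.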

How the data were processed

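Per the labels' protocols, testis RNA was extracted with Trizol and the kit was NEBNext Ultra II Directional. The submitters' processing notes name HISAT2 and mm10, without versions. Not given in the sources used here are quantifier, annotation and strand setting. The deposited values are normalized by the authors and were read as FPKM from the values themselves, since they are not whole and their spacing follows transcript length. Totals were 393622 to 413604 FPKM per library. Rows of 1 symbol were summed (25910 rows). Values of exactly 0 are reported as listed.

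The test was limma 3.58.1 (R 4.3.3, trend and robust options) on log2 of FPKM plus a pseudocount of 1. It covered the 12952 genes whose KO or WT mean reached 1 FPKM, with Benjamini-Hochberg adjustment at 0.05. This scale understates the change of low genes, so ratios of group means are given beside it. By this test 149 genes were called, 102 higher and 47 lower, and 150 and 32 with upper-quartile scaling. Estimated fragment numbers came from the spacing of low values (at 1 step within 0.02 on the log10 scale). Genes were named by rule: the target, Btbd35f genes above 0, members called, the 3 smallest p in each direction and the 10 highest among single-copy genes, those on the X chromosome, Klhl10, and Cul3, Rbx1, Keap1 and Gmcl1. Block neighbours were taken by position. The members and lists were chosen with earlier results of these data known. Near copies (90% identity or more along 50% or more of the transcript) were found with BLAST 2.17.0 and aligned with MAFFT 7.526 against GENCODE M21. Windows of 50 and 150 bases were tried after seeing the data. Other pseudocounts (0.1, 0.01), filters and scalings, the replicate number as a block, a fit without the robust option and each library left out were tried. Same-numbered libraries did not vary together. Figures used matplotlib 3.10.9.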

Additional observations from a re-analysis of the deposited data

How the results depend on the processing

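Of the 5 Btbd35f calls, those of Btbd35f6, f14 and f21 held under all 15 alternatives, with highest limma adjusted p of 0.00784, 0.00697 and 0.0149. The number called was 3 to 6 when 1 library was left out (3 without KO replicate 3), 4 with the replicate block and 6 with pseudocounts of 0.1 or 0.01, upper-quartile scaling or equal totals. Btbd35f28 joined the calls in those 4 settings (limma adjusted p = 0.0451, 0.0420, 0.0418 and 0.0386) and without KO replicate 1 (0.0278). Same-numbered libraries correlated at 0.06, -0.13 and 0.06 in their deviations, so the numbers do not pair them. With the replicate block Btbd35f2 had a limma adjusted p of 0.0519, and over all genes 50 were called in place of 149. Over all genes 88 were called with no filter, and 73 to 233 with 1 library left out (73, 77, 81 and 233 without KO replicate 2, KO replicate 3, WT replicate 1 and WT replicate 3). The Btbd35f median was 0.50 with no filter, over 19 genes, where low genes are shrunk by the pseudocount. The targeted gene was -14.89 with a pseudocount of 0.01 (limma adjusted p = 0.0644).

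The log2 ratio of the Btbd35f sums stayed between 1.0 and 1.17. The single-copy, ligase and other BTB lists had 0 calls under all 15 alternatives. Sign changes, all without a call, were Btbd1 0.0050, Btbd16 0.019, Cul3 0.018, Keap1 0.027 and Rbx1 0.038 with upper-quartile scaling, and Btbd16 0.010, Cul3 0.0095, Keap1 0.019 and Rbx1 0.029 with median-of-ratios scaling. With 1 library left out, the differences ran from -0.017 (without KO replicate 2) to 0.071 for Btbd10, from -0.0031 (without KO replicate 3) to 0.086 for Gmcl1, from -0.086 to 0.016 for Keap1 (positive without WT replicates 2 and 3, the latter 0.0059) and from -0.043 to 0.033 for Rbx1 (positive without WT replicate 3). The cause of the changed calls was not tested. Of 462 single-gene values under alternatives, 437 kept their direction and side of the threshold. The number of genes with no window of their own was 7 at each window length.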
